A study of Mus musculus with 16 samples.

Results

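The nuclear-encoded genes of the mitochondrial respiratory chain were examined in the mouse aorta after 5/6 nephrectomy. Members were the nuclear protein-coding genes whose symbol begins with Nduf followed by a, b, c, s or v, with Uqcr, with Cox and a digit from 4 to 8 or with Atp5, together with Sdha, Sdhb, Sdhc and Sdhd. This rule took 94 of the 54532 genes in the count table, of which 22033 are nuclear and protein-coding. By the family their symbols belong to, 36 members are subunits of complex I, 8 are complex I assembly factors, 4 belong to complex II, 8 to complex III, 20 to complex IV and 18 to complex V. Ndufa4 and its relative Ndufa4l2 were placed with complex IV, and the symbol Atp5o stands for 2 identifiers.

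Bulk RNA sequencing covered whole aortas of male C57BL/6J mice in 4 groups of 4 libraries, 16 in all, whose labels number separate animals. Sham mice had sham surgery and ate a diet with 2% phosphorus and 2.5% protein for 30 days. The 5/6 Nx-HPi-Lp mice lost most of their kidney tissue by 5/6 nephrectomy and ate the diet of the Sham mice. The 5/6 Nx-HPi-Hp mice had the same surgery with 2% phosphorus and 18% protein, and the 5/6 Nx-LPi-Lp mice the same surgery with 0.3% phosphorus and 2.5% protein. Surgery was done at 12 weeks of age. No sham group on either of the other diets was analysed here, so a difference between Sham and the 5/6 Nx-HPi-Hp or 5/6 Nx-LPi-Lp mice holds surgery and diet together, and these cannot be told apart.

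The respiratory chain sits in the inner mitochondrial membrane. Complex I takes electrons from NADH, complex II takes them from succinate as part of the TCA cycle, complex III passes them from ubiquinol to cytochrome c, complex IV hands them to oxygen, and complex V, the ATP synthase, uses the resulting proton gradient to make ATP. Most subunits are encoded in the nucleus and a small core set in mitochondrial DNA. Several complex IV subunits exist as a widely expressed form and as a form typical of heart, skeletal muscle or brown fat, and brown fat, which surrounds the thoracic aorta, is among the tissues richest in mitochondria.

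Total counts ran from 13659525 to 57276915 per library, with the 2 deepest both in 5/6 Nx-HPi-Lp. Some libraries stood apart by their content. The summed level of 8 heart muscle markers was taken in FPKM, a level per gene length that the authors scaled between libraries with size factors. It was 3903 in 5/6 Nx-LPi-Lp library 2 and 249 and 122 in 5/6 Nx-HPi-Hp libraries 1 and 2. In the other libraries it lay between 4.80 and 36.3. 5/6 Nx-HPi-Hp library 4 was close to Sham in its smooth muscle list, at 8737 FPKM against 7882 to 9939 in Sham and 2187 to 3885 in the rest of its group. All 7 smooth muscle markers, which define the main cell type of the aortic wall, were detected in every group, although their summed level was only 848 to 1957 FPKM in 5/6 Nx-HPi-Lp. In bulk tissue, fewer cells of a type and less RNA per cell cannot be told apart.

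Promoters are shown for 4 members, an alternative pair of complex IV whose levels differed between groups (Cox8a and Cox8b) and 2 of the members whose promoters hold more than 1 of the searched motifs (Uqcr11 and Atp5k, chosen after their motifs were seen; Atp5j and Atp5l hold more than 1 as well). RefSeq promoters of assembly GRCm38.p6, with 250 bases before and 50 bases after the start site, were matched by symbol for 76 of the 94 members. Each is written 5′ to 3′ on the gene's strand, with motif matches in capitals.
Cox8a (chr19:7217567-7217866, minus strand): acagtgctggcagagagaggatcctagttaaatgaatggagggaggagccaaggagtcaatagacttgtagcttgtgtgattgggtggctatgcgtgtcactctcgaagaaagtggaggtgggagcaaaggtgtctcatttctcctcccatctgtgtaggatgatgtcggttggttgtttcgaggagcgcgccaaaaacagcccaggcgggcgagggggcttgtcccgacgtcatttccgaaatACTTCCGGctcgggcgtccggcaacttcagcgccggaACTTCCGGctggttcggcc
Cox8b (chr7:140900397-140900696, minus strand): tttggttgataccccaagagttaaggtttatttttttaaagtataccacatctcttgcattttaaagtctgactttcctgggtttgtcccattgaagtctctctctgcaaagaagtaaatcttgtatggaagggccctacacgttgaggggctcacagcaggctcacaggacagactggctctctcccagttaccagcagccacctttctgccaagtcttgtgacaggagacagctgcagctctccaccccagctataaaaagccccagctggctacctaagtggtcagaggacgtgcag
Uqcr11 (chr10:80406772-80407071, minus strand): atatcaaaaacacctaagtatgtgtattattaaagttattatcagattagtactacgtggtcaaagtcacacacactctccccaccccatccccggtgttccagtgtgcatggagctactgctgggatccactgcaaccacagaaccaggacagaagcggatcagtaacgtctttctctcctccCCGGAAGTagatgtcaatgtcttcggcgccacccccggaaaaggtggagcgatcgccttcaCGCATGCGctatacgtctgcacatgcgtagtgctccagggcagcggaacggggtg
Atp5k (chr5:108434350-108434649, minus strand): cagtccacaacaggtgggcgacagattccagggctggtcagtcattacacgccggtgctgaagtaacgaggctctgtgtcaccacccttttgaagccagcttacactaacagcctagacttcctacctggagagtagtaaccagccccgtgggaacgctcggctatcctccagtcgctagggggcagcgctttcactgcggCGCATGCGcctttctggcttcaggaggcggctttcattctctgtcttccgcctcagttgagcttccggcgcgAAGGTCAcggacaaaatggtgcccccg

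In Cox8a, which encodes the widely expressed form of its complex IV subunit, the capitals mark the ETS/GABP motif CCGGAAGT read on the opposite strand, at 6 bases before the start site and again at base 32 after it. None of the searched motifs lay in the window of Cox8b, the form of the same subunit known from heart, muscle and brown fat. In Uqcr11, a small complex III subunit, the NRF1 core CGCATGCG began 5 bases before the start and the ETS/GABP motif 66 bases before it. In Atp5k, a small complex V subunit, the NRF1 core began 49 bases before the start and the core of the ERR half-site, AAGGTCA, at base 24 after it.

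On either strand, the NRF1 core was in the promoter of 11 of the 76 members (14.5%) and of 2.07% of all 27025 genes with a promoter entry. The YY1 motif AAGATGGCG was in 8 members (10.5%) against 1.64% of all genes. The ERR half-site core was in 8 members (10.5%) against 5.38%, and the ETS/GABP motif in 5 members (6.58%) against 4.31%. At least 1 of the 4 motifs was in 28 members (36.8%) against 12.7% of all genes. Complex V, with 15 of the 76 members searched, held 4 of the 11 promoters with the NRF1 core. Complex I, with 32 of the 76, held 5 of the 8 with the YY1 motif. These matches describe letters in a window and carry no test.

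By the group mean of their summed FPKM, the level of the members was lowest in Sham and highest in 5/6 Nx-LPi-Lp. Their summed FPKM was 5984, 6458, 6998 and 6940 in Sham libraries 1 to 4 and 6646, 7818, 9823 and 8808 in the 5/6 Nx-HPi-Lp libraries. It was 13834, 9462, 16795 and 6504 in the 5/6 Nx-HPi-Hp libraries and 20845, 15091, 12628 and 9541 in the 5/6 Nx-LPi-Lp libraries. The 5/6 Nx-LPi-Lp libraries all lay above the Sham libraries, while the 5/6 Nx-HPi-Lp libraries overlapped Sham through library 1 and the 5/6 Nx-HPi-Hp libraries through library 4. Group means ± SD (n = 4 each) were 6595 ± 474 in Sham, 8274 ± 1359 in 5/6 Nx-HPi-Lp, 11649 ± 4565 in 5/6 Nx-HPi-Hp and 14526 ± 4785 in 5/6 Nx-LPi-Lp, so the spread within a group was larger where the mean was higher. As a share of the summed FPKM of nuclear protein-coding genes the members made up 2.33% to 2.78% in Sham, 3.03% to 4.20% in 5/6 Nx-HPi-Lp, 2.57% to 6.48% in 5/6 Nx-HPi-Hp and 3.88% to 7.60% in 5/6 Nx-LPi-Lp. By this share the 5/6 Nx-HPi-Lp libraries did not overlap Sham, although they did by the sum, while 5/6 Nx-HPi-Hp library 4 still lay within the Sham range. Over all nuclear genes the shares were 1.91% to 2.36% in Sham, 2.18% to 3.28% in 5/6 Nx-HPi-Lp, 1.66% to 4.58% in 5/6 Nx-HPi-Hp and 2.70% to 5.54% in 5/6 Nx-LPi-Lp, with overlap of Sham with 5/6 Nx-HPi-Lp and 5/6 Nx-HPi-Hp. The content of the libraries differed between Sham and the other groups as well. The single small RNA gene Gm23935 took 9.77% to 12.9% of the summed FPKM of nuclear genes in Sham, 16.1% to 23.7% in 5/6 Nx-HPi-Lp, 21.9% to 39.7% in 5/6 Nx-HPi-Hp and 21.6% to 30.4% in 5/6 Nx-LPi-Lp. Mitochondrially encoded genes held 4.18% to 6.34% of the counts in Sham, 19.3% to 27.1% in 5/6 Nx-HPi-Lp, 9.50% to 29.0% in 5/6 Nx-HPi-Hp and 14.2% to 21.1% in 5/6 Nx-LPi-Lp. Both measures were lower in every Sham library than in any nephrectomy library, and their part in the members' levels was not tested.

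**Figure D1:**
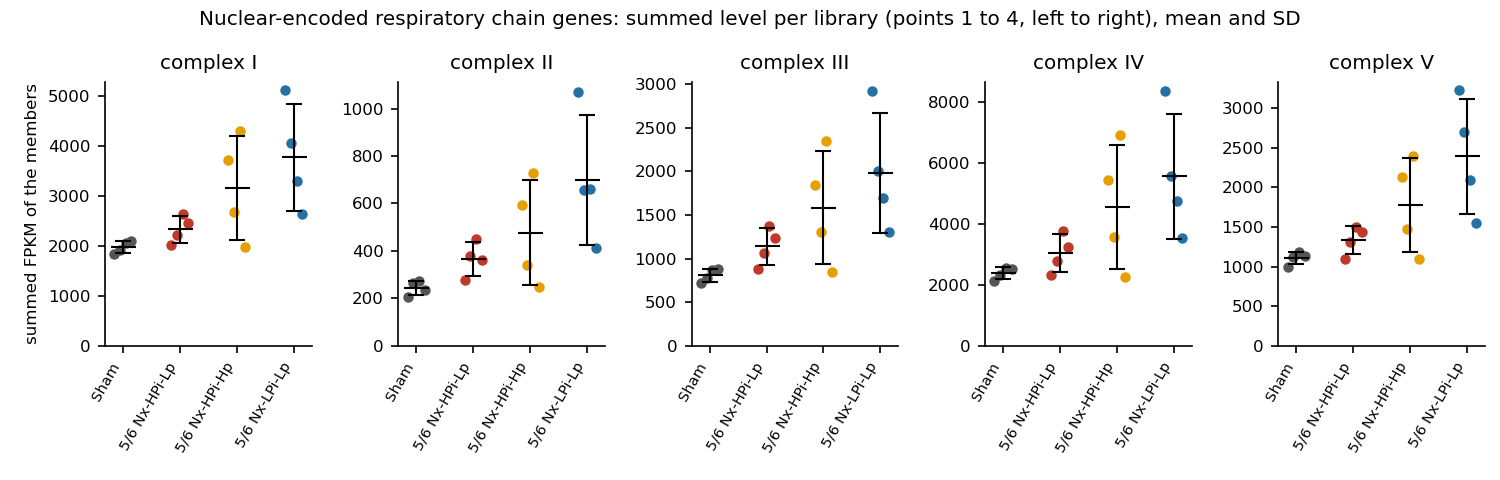
Summed FPKM of the members of complexes I to V in each of the 16 libraries (points, libraries 1 to 4 from left to right), with the mean and SD of each group of 4. In every complex the 5/6 Nx-LPi-Lp points lie above the Sham points, and 5/6 Nx-HPi-Hp library 4 is the lowest of its group.

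Among the complexes, the ratio of the 5/6 Nx-LPi-Lp mean to the Sham mean of summed FPKM was 1.91 for complex I, 2.87 for complex II, 2.45 for complex III, 2.34 for complex IV and 2.16 for complex V. Complex II, which also works in the TCA cycle, summed to 204, 264, 271 and 235 FPKM in Sham and to 1070, 654, 661 and 409.9 FPKM in 5/6 Nx-LPi-Lp. The complex I assembly factors, which help build the complex and are not part of it, had a ratio of 1.31. The ratio of the 5/6 Nx-HPi-Lp to the Sham mean was 1.50 for complex II and 1.41 for complex III, whose groups did not overlap. It was 1.18 for complex I, 1.27 for complex IV and 1.21 for complex V, whose groups overlapped, and 0.866 for the assembly factors, which overlapped too. By the median of the members in place of their sum, the complex IV groups did not overlap, with a ratio of 1.45. Complex IV had the highest sum in every group, at 2381 ± 196 FPKM in Sham and 5567 ± 2047 FPKM in 5/6 Nx-LPi-Lp (SD, n = 4).

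Of the 94 members, 91 had enough counts to be tested in every comparison. The 3 others were Cox7b2 and Cox8c, alternative complex IV subunits with 2 and 8 counts over the 16 libraries, and the second Atp5o identifier, which had 0 counts in every library, where counting error alone allows up to 3 counts. A member passed at an adjusted p of at most 0.05 in the quasi-likelihood test of edgeR, with adjustment by Benjamini and Hochberg over all genes tested, and the study's rule for a differentially expressed gene asks in addition for a 2-fold difference. By group mean FPKM, 5/6 Nx-LPi-Lp was the highest of the 4 groups in 81 of the 91 members. Sham was the lowest in 66 and 5/6 Nx-HPi-Lp in 23. The full order Sham, 5/6 Nx-HPi-Lp, 5/6 Nx-HPi-Hp, 5/6 Nx-LPi-Lp held in 58 members. The 3 comparisons with Sham share the same 4 Sham libraries, and the 3 that use 5/6 Nx-HPi-Lp share its libraries.

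**Figure D2:**
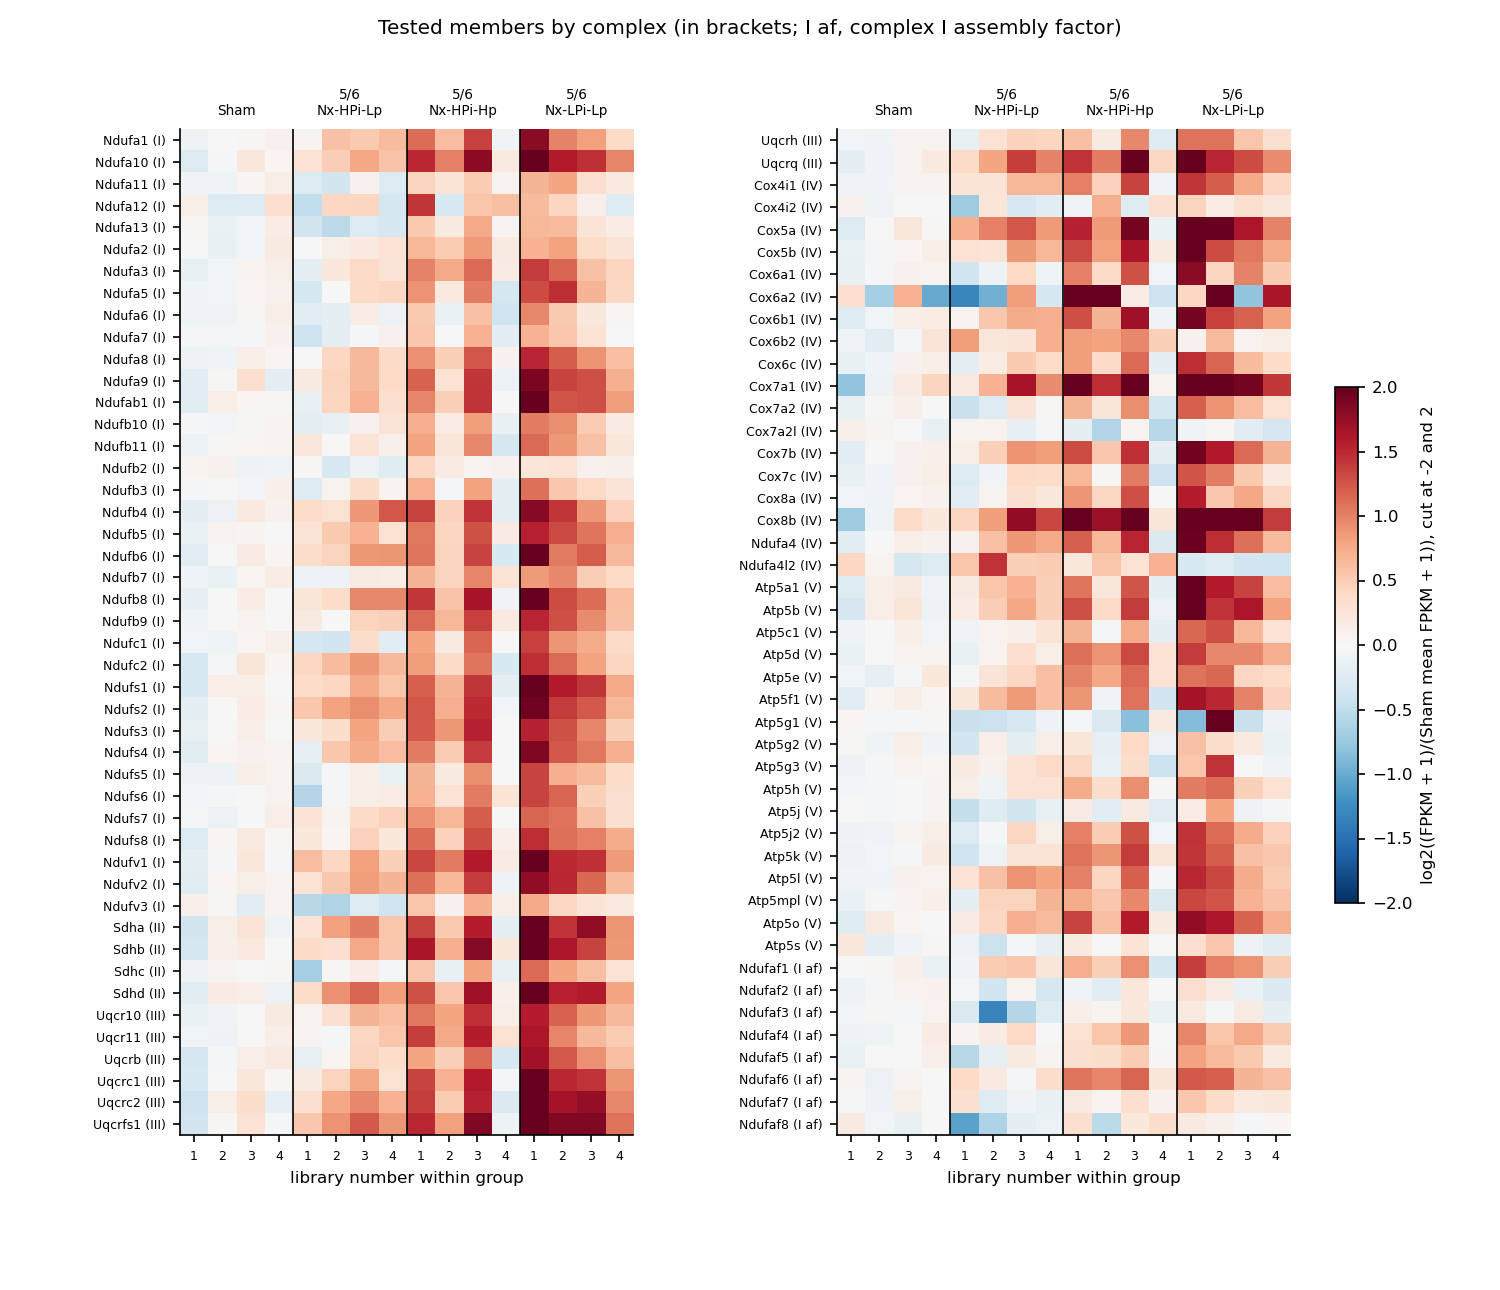
Each of the 91 tested members (rows, with its complex) in each of the 16 libraries (columns), coloured by log2 of FPKM + 1 over the Sham mean + 1, cut at -2 and 2. Group means are highest in 5/6 Nx-LPi-Lp for 81 members, 5/6 Nx-HPi-Hp column 4 is near Sham, and Cox7a2l and Ndufa4l2 do not follow the other rows.

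The effect of nephrectomy on the high-phosphorus, low-protein diet was read from 5/6 Nx-HPi-Lp against Sham, the pair whose labels differ in surgery alone. Their libraries also differed in content. Mitochondrially encoded genes held 4.18% to 6.34% of the counts in Sham and 19.3% to 27.1% in 5/6 Nx-HPi-Lp, and the part of this was not tested. In this comparison 34 members were higher and 4 lower in 5/6 Nx-HPi-Lp, while 53 did not pass. Over all 16513 genes tested, 22.7% were higher and 20.2% lower. The median log2 fold change of the 91 members was 0.25, beside -0.0027 over all genes, and 66 members lay above 0. Higher were 13 of 36 complex I subunits, 3 of 4 members of complex II, 4 of 8 of complex III, 9 of 18 of complex IV and 5 of 17 of complex V. None of the 8 assembly factors passed in edgeR's test, where 2 had an unadjusted p under 0.05 and the smallest adjusted p was 0.0512. With the 2-fold rule 1 member was higher and 0 lower, beside 15% and 7.18% of all genes.

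Cox5a, a nuclear subunit of complex IV, had 17.4, 21.0, 24.9 and 21.6 FPKM in Sham and 35.4, 43.7, 51.4 and 39.2 FPKM in 5/6 Nx-HPi-Lp. The groups did not overlap, and the log2 fold change was 0.97 ± 0.14 (SE, edgeR adjusted p = 0.000583). Cox8b had 112, 173, 238 and 213 FPKM in Sham and 249, 328, 633 and 466 FPKM in 5/6 Nx-HPi-Lp, a log2 fold change of 1.16 ± 0.31, edgeR adjusted p = 0.0125. Its 5/6 Nx-HPi-Lp libraries also all lay above Sham, and it was the 1 member past the 2-fold rule. Cox7a1, the muscle and brown fat form of another complex IV subunit, had 25.1, 41.4, 49.9 and 61.0 FPKM in Sham and 51.0, 72.1, 142 and 86.4 FPKM in 5/6 Nx-HPi-Lp (log2 fold change 0.96 ± 0.33, edgeR adjusted p = 0.0398). Its groups overlapped, and its call was lost without 5/6 Nx-HPi-Lp library 3 or 4 or Sham library 1, 2 or 3, at adjusted p of 0.0732 to 0.111.

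For each of the 4 lower members, every 5/6 Nx-HPi-Lp library lay below every Sham library. Ndufv3, a small subunit of the NADH-oxidising part of complex I, had 52.5, 49.5, 41.9 and 51.3 FPKM in Sham and 33.0, 31.7, 40.8 and 36.7 FPKM in 5/6 Nx-HPi-Lp (log2 fold change -0.48 ± 0.12, edgeR adjusted p = 0.00882). Ndufa13, an accessory complex I subunit also known as GRIM-19, had 87.8, 78.1, 83.2 and 95.1 FPKM in Sham and 66.2, 59.6, 71.3 and 67.6 FPKM in 5/6 Nx-HPi-Lp (-0.41 ± 0.10, edgeR adjusted p = 0.00979). Atp5j, which encodes coupling factor F6 of the ATP synthase, had 35.1, 34.2, 35.5 and 36.5 FPKM in Sham and 24.98, 29.7, 27.1 and 31.7 FPKM in 5/6 Nx-HPi-Lp (-0.35 ± 0.10, edgeR adjusted p = 0.0170). Atp5g1, 1 of 3 genes for the same membrane ring subunit of complex V, changed by -0.38 ± 0.11, edgeR adjusted p = 0.0178. The other ring subunit genes, Atp5g2 and Atp5g3, passed in none of the 5 comparisons.

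In the 8 fits that each left out 1 library, 16 of the 34 higher calls and all 4 of the lower calls were kept each time. The number of higher members fell to 17 without Sham library 1, 18.7% of the members beside 18.4% of all genes, and to 20 without Sham library 2, 22% beside 18.3%. The share of the members was thus close to that of all genes without Sham library 1. Scaling by library totals, which shifted the median of all genes by -0.14, gave 19 higher and 7 lower members, 20.9% and 7.69% beside 19% and 27.7% of all genes. A fit over all 16 libraries gave 7 higher and 2 lower, where the 7.69% of members that were higher lay below the 21.3% of all genes. The 7 brown adipocyte markers summed to 199 to 409 FPKM in Sham and 381 to 1188 FPKM in 5/6 Nx-HPi-Lp, with 3 of 6 tested higher. The 8 white adipocyte markers summed to 250.6 to 627 and 2801 to 8765 FPKM, with 6 higher, and the 6 macrophage markers to 118 to 185 and 405 to 1536 FPKM, with 6 higher. All 7 smooth muscle markers were lower. No marker of these lists was at 0 throughout either group, but Zic1 of the brown list reached at most 0.0378 FPKM. The part of these lists in the members' difference was not tested.

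The effect of dietary phosphorus after nephrectomy was read from 5/6 Nx-HPi-Lp against 5/6 Nx-LPi-Lp. Here 40 members were lower on the high-phosphorus diet and 1 was higher, while 50 did not pass. Over all 16253 genes tested, 8.96% were lower and 11.1% higher. The median log2 fold change of the members was -0.75, beside -0.016 over all genes, and 88 of 91 lay below 0. Lower were 19 of 36 complex I subunits, 3 of 8 assembly factors, 3 of 4 members of complex II, 4 of 8 of complex III, 4 of 18 of complex IV and 7 of 17 of complex V. With the 2-fold rule 12 members were lower and 1 higher, beside 3.98% and 7.9% of all genes.

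Uqcrc1, a core protein of complex III, had 66.2, 80.0, 100.2 and 72.5 FPKM in 5/6 Nx-HPi-Lp and 272, 168, 160.4 and 108 FPKM in 5/6 Nx-LPi-Lp. No high-phosphorus library reached the lowest low-phosphorus library, and the log2 fold change was -1.15 ± 0.27, edgeR adjusted p = 0.0188; the call was lost without 5/6 Nx-HPi-Lp library 4, at an adjusted p of 0.0592. Atp5b, the catalytic beta subunit of the ATP synthase and the complex V member with the highest mean FPKM, had 173, 219, 267 and 216 FPKM in 5/6 Nx-HPi-Lp and 783, 425, 482 and 273 FPKM in 5/6 Nx-LPi-Lp (-1.16 ± 0.30, edgeR adjusted p = 0.0274). Its groups did not overlap either, and its call was lost without 5/6 Nx-HPi-Lp library 1, 2 or 4 or 5/6 Nx-LPi-Lp library 3, at adjusted p of 0.0544 to 0.0746. The lowest fitted value among the members that passed was that of Cox7a1 (-1.45 ± 0.40, edgeR adjusted p = 0.0318), whose groups overlapped. Its call was lost without 5/6 Nx-HPi-Lp library 1, 2 or 4 or 5/6 Nx-LPi-Lp library 1, 2 or 3, at adjusted p of 0.0505 to 0.0848.

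Ndufv3 and Ndufa13 were also lower in this comparison, by log2 fold changes of -0.89 ± 0.16, edgeR adjusted p = 0.00602, and -0.82 ± 0.15, edgeR adjusted p = 0.00653, with no overlap between the groups. Both calls were kept in all 8 fits without 1 library, as were those of Atp5d, the delta subunit of complex V (-0.93 ± 0.18, edgeR adjusted p = 0.00926), and of Sdhb, the iron-sulfur subunit of complex II (-1.001 ± 0.23, edgeR adjusted p = 0.0164). In all, 9 of the 40 lower calls were kept in each of those fits. The number of lower members was 25, 17 and 10 without 5/6 Nx-HPi-Lp library 1, 2 and 4, and 24, 25 and 21 without 5/6 Nx-LPi-Lp library 1, 2 and 3, while it was 61 without 5/6 Nx-LPi-Lp library 4. The lowest of these counts, without 5/6 Nx-HPi-Lp library 4, was 11% of the members beside 3.37% of all genes. The brown adipocyte markers summed to 778 to 3164 FPKM in 5/6 Nx-LPi-Lp against 381 to 1188 FPKM in 5/6 Nx-HPi-Lp, and the macrophage markers to 113 to 210.0 FPKM against 405 to 1536 FPKM. In 5/6 Nx-HPi-Lp, 2 of the 6 tested brown adipocyte markers were lower and 1 higher, and all 6 macrophage markers were higher. The white adipocyte markers had the opposite order to the brown, at 743 to 1981 FPKM in 5/6 Nx-LPi-Lp and 2801 to 8765 FPKM in 5/6 Nx-HPi-Lp, with 3 of 8 higher in 5/6 Nx-HPi-Lp. Of the smooth muscle markers 6 of 7 were lower in 5/6 Nx-HPi-Lp, and of the fibroblast markers 5 of 6 were higher. Their part in the difference was not tested.

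The 1 higher member was Ndufa4l2, a relative of Ndufa4 that is known as a target of the hypoxia-inducible factors. It had 17.2, 32.8, 16.2 and 16.6 FPKM in 5/6 Nx-HPi-Lp and 8.99, 9.49, 8.48 and 8.42 FPKM in 5/6 Nx-LPi-Lp. Every high-phosphorus library lay above every low-phosphorus library, and the log2 fold change was 1.23 ± 0.25, edgeR adjusted p = 0.0105, kept in all 8 fits without 1 library. In Sham it had 15.4, 11.99, 8.80 and 9.33 FPKM, below all 5/6 Nx-HPi-Lp libraries (0.83 ± 0.27, edgeR adjusted p = 0.0309). That second call was lost without 5/6 Nx-HPi-Lp library 2 or Sham library 2, 3 or 4, at adjusted p of 0.0595 to 0.0929. Ndufa4l2 lies on chromosome 10 at positions 127514967 to 127517154 of mm10, and was the only tested member whose group mean was highest in 5/6 Nx-HPi-Lp.

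The effect of dietary protein after nephrectomy was read from 5/6 Nx-HPi-Lp against 5/6 Nx-HPi-Hp. Only 4 members passed, all lower on the low-protein diet, which is 4.40% of the members beside 5.95% of the 16198 genes tested. In edgeR's test 0 members were higher, as in DESeq2, beside 7.09% of all genes, and 24 members had an unadjusted p under 0.05 in either direction. The 4 calls were those of Ndufv3 (-0.85 ± 0.18, edgeR adjusted p = 0.0183), Ndufa13 (-0.79 ± 0.18, edgeR adjusted p = 0.0221), Atp5d (-0.85 ± 0.23, edgeR adjusted p = 0.0390) and Atp5k (-0.93 ± 0.25, edgeR adjusted p = 0.0369). Of the 91 members 86 lay below 0, with a median of -0.40 beside 0.0098 over all genes. With the 2-fold rule 0 members passed in either direction in edgeR's test, beside 3.11% of genes lower and 5.01% higher. In the same comparison 5 of 7 smooth muscle markers were lower in 5/6 Nx-HPi-Lp, at 848 to 1957 against 2187 to 8737 FPKM in sum, while 6 of 6 macrophage and 5 of 6 fibroblast markers were higher. Of the adipocyte markers 1 of 6 tested in the brown list was higher and the other tested ones did not pass. The part of these lists in the members' difference was not tested.

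Ndufv3 had 33.0, 31.7, 40.8 and 36.7 FPKM in 5/6 Nx-HPi-Lp and 72.1, 51.8, 80.5 and 53.2 FPKM in 5/6 Nx-HPi-Hp. The groups did not overlap, nor did those of Ndufa13, while those of Atp5d and Atp5k did. None of the 4 calls was kept in every fit without 1 library. The number of lower members was 21 without 5/6 Nx-HPi-Hp library 4, the library close to Sham in its smooth muscle markers. That was 23.1% of the members beside 6.55% of all genes. Without 5/6 Nx-HPi-Hp library 1, 2 and 3 the number was 1, 2 and 2. These were 1.1%, 2.2% and 2.2% of the members beside 4%, 2.39% and 3.75% of all genes. Without 5/6 Nx-HPi-Lp library 1 and 3 the number was 2 and 3, 2.2% and 3.3% beside 6.12% and 3.39%. Without 5/6 Nx-HPi-Lp library 2 or 4 it was 0, beside 2.57% and 1.56% of all genes. The number was also 0 without 5/6 Nx-HPi-Hp libraries 1 and 2, which held heart markers, an alternative chosen after seeing the data. There 8 of all genes were higher and 2 lower.

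Against Sham, the 5/6 Nx-LPi-Lp mice had 76 members higher and 0 lower, with 15 that did not pass. Over all 16071 genes tested, 17.3% were higher and 14.5% lower. In edgeR's test 77 members had an unadjusted p under 0.05 in either direction, and DESeq2 also called 0 lower. The median log2 fold change of the members was 1.04, beside 0.020 over all genes, and 89 of 91 lay above 0. Higher were 33 of 36 complex I subunits, 4 of 4 members of complex II, 8 of 8 of complex III, 14 of 18 of complex IV, 12 of 17 of complex V and 5 of 8 assembly factors. The 2-fold rule was met by 51 members in the upward and 0 in the downward direction, beside 8.79% and 2.08% of all genes.

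The 4 complex II genes differed in size of change. Sdha, the flavoprotein subunit, had 45.2, 63.0, 69.8 and 55.1 FPKM in Sham and 349, 159.9, 201 and 108 FPKM in 5/6 Nx-LPi-Lp (log2 fold change 1.82 ± 0.32, edgeR adjusted p = 0.00401). Sdhd, a membrane anchor and the complex II member with the highest mean FPKM, had 68.3, 88.7, 87.0 and 73.0 FPKM in Sham and 386, 234, 239 and 137 FPKM in 5/6 Nx-LPi-Lp (1.66 ± 0.26, edgeR adjusted p = 0.00344). Sdhb had a log2 fold change of 1.54 ± 0.22, edgeR adjusted p = 0.00330. Sdhc, the other membrane anchor, had 0.76 ± 0.16, edgeR adjusted p = 0.00843. For all 4 genes the groups did not overlap, and the calls were kept in every fit without 1 library. In 5/6 Nx-HPi-Lp against Sham, Sdhd rose by 0.83 ± 0.17, edgeR adjusted p = 0.00327, while Sdhc did not pass (-0.14 ± 0.16).

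The member of highest mean FPKM in each of the other complexes was also higher in 5/6 Nx-LPi-Lp than in Sham. Atp5b had 123, 171, 184 and 146 FPKM in Sham, all below its 5/6 Nx-LPi-Lp libraries (log2 fold change 1.66 ± 0.29, edgeR adjusted p = 0.00393). Uqcr10, a small subunit with the highest mean FPKM of complex III, had 176, 183, 193 and 219 FPKM in Sham and 574, 439, 354 and 302 FPKM in 5/6 Nx-LPi-Lp (1.13 ± 0.18, edgeR adjusted p = 0.00352). Ndufa2, an accessory subunit with the highest mean FPKM of complex I, had 213, 191, 205 and 241 FPKM in Sham and 344, 374, 274 and 254 FPKM in 5/6 Nx-LPi-Lp (0.57 ± 0.14, edgeR adjusted p = 0.0156). The groups of both genes did not overlap, but the Ndufa2 call was lost without Sham library 2, at an adjusted p of 0.0554. Cox6a1, the widely expressed form of subunit 6a with the highest mean FPKM of complex IV, had a log2 fold change of 1.06 ± 0.27, edgeR adjusted p = 0.0166, and its call was lost without Sham library 1 or 2, at adjusted p of 0.0507 to 0.0510.

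Ndufv3 and Ndufa13, lower than Sham in 5/6 Nx-HPi-Lp, were higher than Sham in 5/6 Nx-LPi-Lp, by 0.45 ± 0.14, edgeR adjusted p = 0.0319, and 0.46 ± 0.14, edgeR adjusted p = 0.0294. The Ndufv3 call was lost without 5/6 Nx-LPi-Lp library 1 or 2 or any 1 Sham library, at adjusted p of 0.0552 to 0.0908. The Ndufa13 call was lost without 5/6 Nx-LPi-Lp library 1 or 2 or Sham library 1, 2 or 3, at adjusted p of 0.0662 to 0.0906. The count of higher members stayed between 67 and 78 in the 8 fits without 1 library, with 67 of the 76 calls kept each time, and was 72 without 5/6 Nx-LPi-Lp library 2, the library with heart markers. The brown adipocyte list was higher in every 5/6 Nx-LPi-Lp library (778 to 3164 FPKM) than in any Sham library (199 to 409 FPKM), as was the white adipocyte list (743 to 1981 against 250.6 to 627 FPKM). No marker of these 2 lists was at 0 throughout a group, but Zic1 of the brown list reached at most 0.213 FPKM. Of the heart muscle markers 6 of 7 tested were higher, with a sum of 3903 FPKM in library 2 and 9.33 to 29.4 in the others. By contrast 4 of 7 smooth muscle and 2 of 6 fibroblast markers were lower, and 0 of 6 macrophage markers passed. The part of these lists in the rise was not tested.

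The 5/6 Nx-HPi-Hp mice against Sham had 43 members higher and 0 lower, beside 17.5% of the 15882 genes tested that were higher and 13.9% that were lower. In edgeR's test 65 members had an unadjusted p under 0.05 in either direction, and DESeq2 also called 0 lower. The median log2 fold change of the members was 0.75, beside 0.018 over all genes. Higher were 20 of 36 complex I subunits, 1 of 8 assembly factors, 2 of 4 members of complex II, 5 of 8 of complex III, 9 of 18 of complex IV and 6 of 17 of complex V. With the 2-fold rule 18 were higher and 0 lower, beside 9.41% and 2.75% of all genes. Cox8b had 1060, 610.4, 1424 and 218 FPKM in 5/6 Nx-HPi-Hp (log2 fold change against Sham 2.16 ± 0.49, edgeR adjusted p = 0.0132). Libraries 1 to 3 were above all Sham libraries, and library 4 lay within the Sham range.

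This count depended on which libraries were kept. It was 74 without 5/6 Nx-HPi-Hp library 4, 36 without library 2, 14 without library 1, 18 without library 3, and 15, 7, 16 and 17 without Sham library 1, 2, 3 and 4. Without Sham library 2 the 7.69% of members that were higher stood beside 7.32% of all genes, without 5/6 Nx-HPi-Hp library 1 15.4% beside 13.2%, and without 5/6 Nx-HPi-Hp library 4 81.3% beside 22.9%. In these 8 fits 7 of the 43 calls were kept each time, those of Atp5d, Atp5k, Cox6b2, Cox8b, Ndufaf6, Uqcr11 and Uqcrq, a set named after its values were seen. Without 5/6 Nx-HPi-Hp libraries 1 and 2, which held heart markers, 0 members passed in edgeR's test, the median was 0.72, and 6 genes passed in the whole table. Within the group the members, the brown and the white adipocyte list had the same order of libraries, 3, 1, 2 and 4, with brown adipocyte sums of 1655, 1272, 685 and 466 FPKM and white adipocyte sums of 8191, 5864, 2246 and 726 FPKM. Against Sham, 7 of 8 white adipocyte, 5 of 6 tested heart and 5 of 6 macrophage markers were higher. Of 6 tested brown adipocyte markers 4 were higher and 1 lower. Of the smooth muscle markers 1 of 7 was lower, and of the fibroblast markers 2 of 6. The part of these lists in the members' level was not tested.

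**Figure D3:**
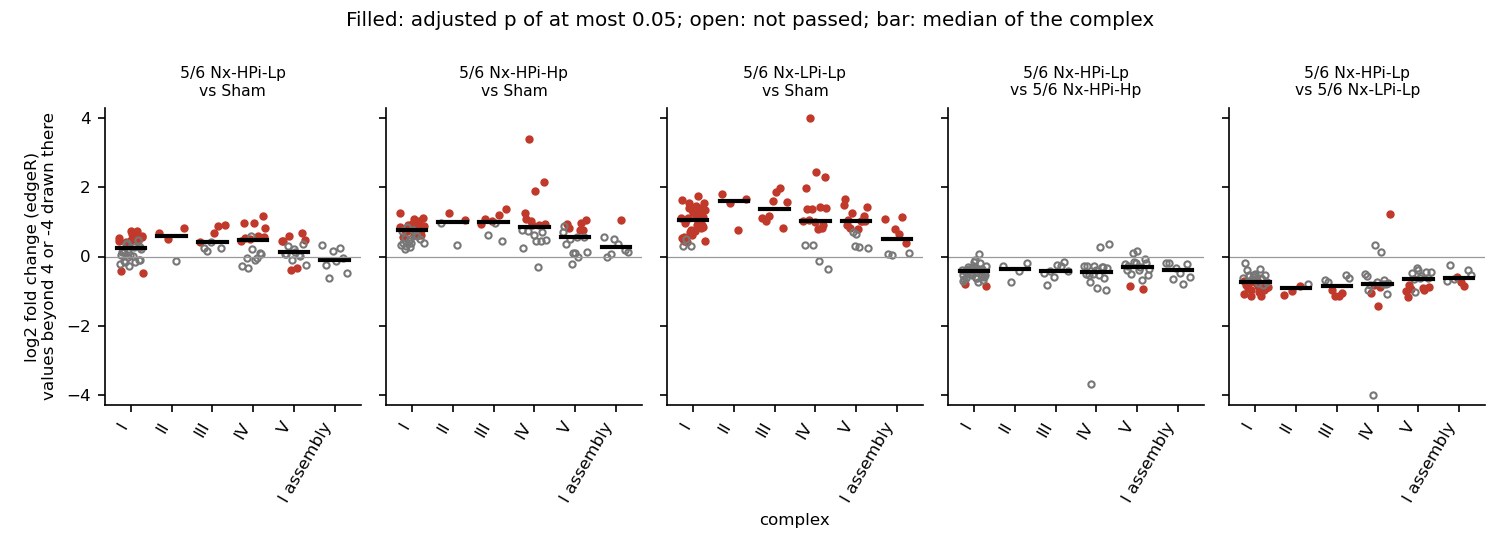
log2 fold change of each of the 91 tested members (points) by complex in the 5 comparisons; filled points had an adjusted p of at most 0.05, open points did not, and bars are the medians of each complex. Values beyond -4 or 4 are drawn at the edge. The medians of complexes I to V against Sham run from 0.13 to 0.58 in 5/6 Nx-HPi-Lp and from 1.02 to 1.60 in 5/6 Nx-LPi-Lp.

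Complex IV subunits with an alternative form were compared as ratios within a library, because a ratio does not depend on the scaling between libraries. Of 7 pairs, 5 had both genes above 0 FPKM in all 16 libraries, and these were tested by a two-sided exact permutation test of the mean log2 ratio in 25 tests. The smallest p that 4 against 4 libraries allow in this exact test is 0.0286. It was reached in 9 of the 25 tests, and after Benjamini-Hochberg adjustment over the 25 the smallest adjusted p was 0.0794, so 0 ratios passed.

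The ratio of Cox8b to Cox8a was 0.234, 0.363, 0.464 and 0.401 in Sham and 0.58, 0.621, 1.02 and 0.804 in 5/6 Nx-HPi-Lp. In 5/6 Nx-LPi-Lp it was 0.999, 1.20, 0.876 and 0.727. Both nephrectomy groups lay above Sham in every library, by 1.06 and 1.40 on the log2 scale (exact permutation p = 0.0286, adjusted p = 0.0794 in each). The ratio of Cox7a1 to Cox7a2, its widely expressed partner, was higher than in Sham by 1.06 in 5/6 Nx-HPi-Lp and 1.61 in 5/6 Nx-LPi-Lp, with the same values of the exact permutation test. In 5/6 Nx-HPi-Hp the differences were 1.27 for Cox8b and 1.32 for Cox7a1, where library 4 overlapped Sham (exact permutation p = 0.0571, adjusted p = 0.130 in each).

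The ratio of Ndufa4l2 to Ndufa4 was lowest on average in 5/6 Nx-LPi-Lp. It was 0.246, 0.164, 0.109 and 0.12 in Sham, 0.221, 0.296, 0.12 and 0.133 in 5/6 Nx-HPi-Lp, 0.0792, 0.147, 0.066 and 0.315 in 5/6 Nx-HPi-Hp and 0.0311, 0.0457, 0.0532 and 0.0737 in 5/6 Nx-LPi-Lp. The 5/6 Nx-LPi-Lp libraries overlapped 5/6 Nx-HPi-Hp, whose library 3 was below 5/6 Nx-LPi-Lp library 4, but lay below all libraries of Sham and 5/6 Nx-HPi-Lp, with a log2 difference of -1.64 from Sham and of 1.89 for 5/6 Nx-HPi-Lp over 5/6 Nx-LPi-Lp (exact permutation p = 0.0286, adjusted p = 0.0794 in each). Cox4i2, the lung form of subunit 4, lay between 3.36 and 10.8 FPKM in the 16 libraries and passed in 0 of the 5 comparisons in edgeR's test. Its widely expressed partner Cox4i1 had a log2 fold change of 0.46 ± 0.13, edgeR adjusted p = 0.0177, in 5/6 Nx-HPi-Lp against Sham and of 1.02 ± 0.21, edgeR adjusted p = 0.00642, in 5/6 Nx-LPi-Lp. The first of these calls was lost without Sham library 1 or 2, at adjusted p of 0.0632 to 0.0649.

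**Figure D4:**
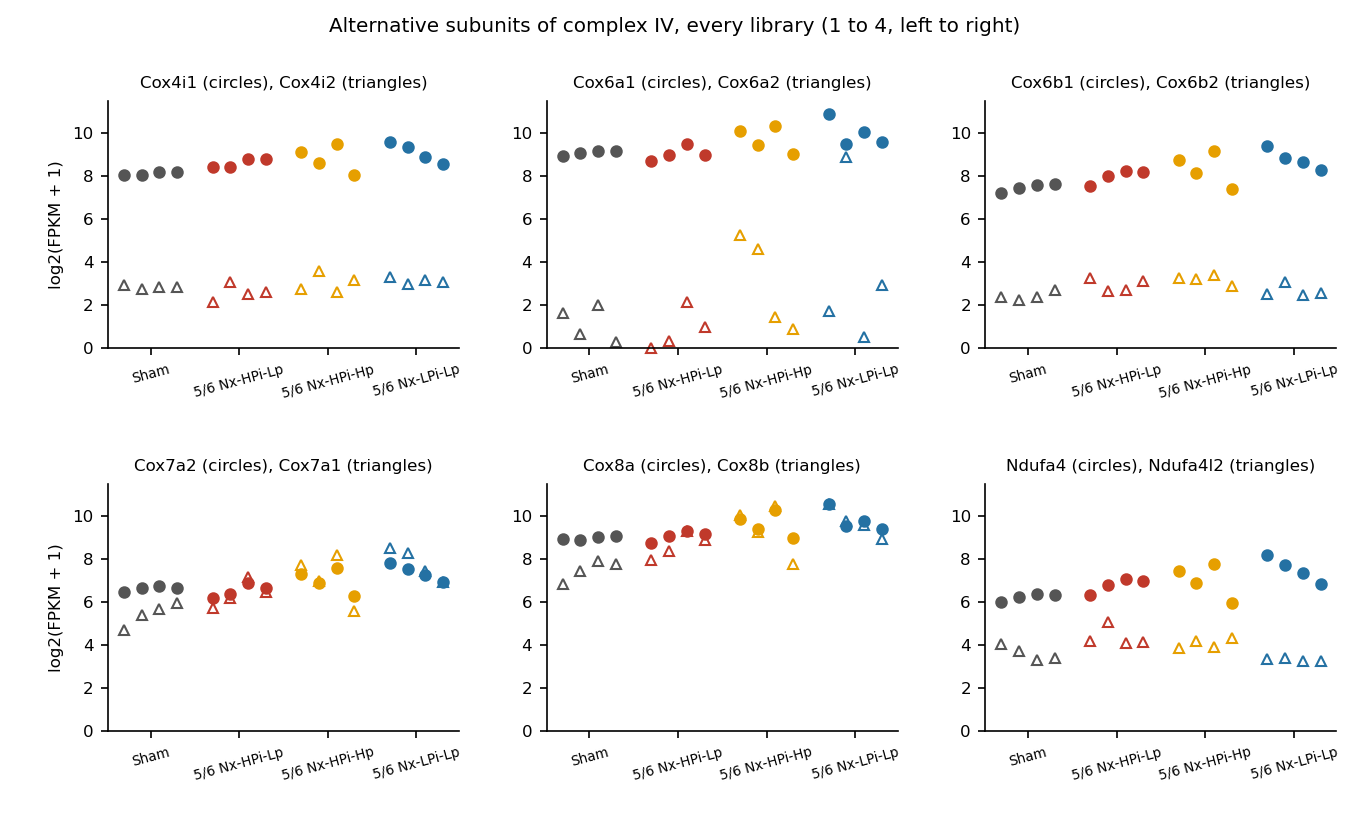
log2 of FPKM + 1 of 6 pairs of alternative complex IV subunits in every library (1 to 4 from left to right within each group), with the widely expressed and the alternative form marked apart. Cox8b and Cox7a1 lie closer to their partners in 5/6 Nx-HPi-Lp and 5/6 Nx-LPi-Lp than in Sham, and Cox6a2 is high in 5/6 Nx-LPi-Lp library 2 and 5/6 Nx-HPi-Hp libraries 1 and 2.

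Cox6a2, the heart and skeletal muscle form of subunit 6a, was high in the libraries with heart markers. It had 2.29, 470.2, 0.433 and 6.64 FPKM in 5/6 Nx-LPi-Lp, 36.7, 23.3, 1.72 and 0.859 FPKM in 5/6 Nx-HPi-Hp and 2.11, 0.553, 2.97 and 0.225 FPKM in Sham. The fitted log2 fold change of 6.39 ± 1.98, edgeR adjusted p = 0.0343, in 5/6 Nx-LPi-Lp against Sham was 1.14 with an adjusted p of 0.370 without 5/6 Nx-LPi-Lp library 2. That call was lost without 5/6 Nx-LPi-Lp library 2 or any 1 Sham library, at adjusted p of 0.0675 to 0.370. The value in 5/6 Nx-HPi-Hp was 3.41 ± 1.13, edgeR adjusted p = 0.0427, and the call was lost without 5/6 Nx-HPi-Hp library 1 or 2 or any 1 Sham library, at adjusted p of 0.0615 to 0.127. It turned to -0.22 without 5/6 Nx-HPi-Hp libraries 1 and 2 together. Atp5g1 had 47.1 FPKM in the same 5/6 Nx-LPi-Lp library and 5.62 to 10.1 FPKM in the others of that group, all below the Sham range of 10.8 to 11.4 FPKM.

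Of the 91 tested members, 11 passed in none of the 5 comparisons: Atp5g2, Atp5g3, Atp5s, Cox4i2, Cox7a2l, Ndufa6, Ndufa12, Ndufb2, Ndufaf2, Ndufaf3 and Ndufaf8. Cox7a2l, a relative of Cox7a2, had 162, 158, 149.9 and 136 FPKM in Sham and 145, 154, 131 and 119.6 FPKM in 5/6 Nx-LPi-Lp (log2 fold change -0.13 ± 0.11). It was the only tested member whose group mean was highest in Sham. Cox6b2, the testis form of subunit 6b, had 8.58, 8.35, 9.36 and 6.47 FPKM in 5/6 Nx-HPi-Hp and 4.11, 3.62, 4.23 and 5.42 FPKM in Sham (0.90 ± 0.20, edgeR adjusted p = 0.0130), with no overlap.

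Lists of related mitochondrial genes were counted in the same fits, where 22.7% of all genes were higher and 20.2% lower in 5/6 Nx-HPi-Lp than in Sham and 17.3% were higher in 5/6 Nx-LPi-Lp. The electron carrier list held 9 carriers and related genes that the name rule missed, such as cytochrome c (Cycs) and Cyc1 of complex III. Not all of the 9 are carriers or subunits, for example Dmac2 and Coq10a. Of the 9, 5 were higher in 5/6 Nx-HPi-Lp and 7 in 5/6 Nx-LPi-Lp than in Sham (55.6% and 77.8%), with medians of 0.59 and 1.60. Of 13 TCA cycle genes 8 were higher and 1 lower in 5/6 Nx-HPi-Lp, and 12 were higher in 5/6 Nx-LPi-Lp (medians 0.57 and 1.67). Of 13 genes of fatty acid oxidation 9 were higher and 1 lower, then 12 higher and 1 lower (medians 0.67 and 2.02). The lower gene was Cpt1a, a carnitine palmitoyltransferase, in both comparisons. Against 5/6 Nx-LPi-Lp, 5 genes of the electron carrier list, 10 TCA cycle genes and 7 fatty acid oxidation genes were lower in 5/6 Nx-HPi-Lp. These were 55.6%, 76.9% and 53.8% of their lists beside 8.96% of all genes.

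Of 35 tested assembly factors outside the name rule 3 were higher and 1 lower in 5/6 Nx-HPi-Lp than in Sham, and 21 (60%) were higher in 5/6 Nx-LPi-Lp. Of 77 tested mitochondrial ribosomal protein genes 14 were higher and 1 lower, then 53 (68.8%) were higher. The shares higher in 5/6 Nx-HPi-Lp, 8.57% of these assembly factors and 18.2% of the ribosomal protein genes, lay below the 22.7% of all genes. Of 16 carrier, pore and import genes 8 (50%) were higher and 1 lower, then 11 (68.8%) were higher. The medians of these 3 lists in 5/6 Nx-LPi-Lp against Sham were 0.59, 0.56 and 0.81. Against 5/6 Nx-LPi-Lp, 7, 21 and 3 of their genes were lower in 5/6 Nx-HPi-Lp, which is 20%, 27.3% and 18.8% beside 8.96% of all genes. Against 5/6 Nx-HPi-Hp, 1 gene of the electron carrier list, 3 assembly factors and 6 ribosomal protein genes were lower in 5/6 Nx-HPi-Lp. There 1 gene of the carrier, pore and import list was higher. These were 11.1%, 8.57% and 7.79% of their lists beside 5.95% of all genes lower, and 6.25% beside 7.09% higher.

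Among 15 regulators of mitochondrial genes, 5 were higher and 2 lower in 5/6 Nx-HPi-Lp than in Sham, and 10 were higher and 1 lower in 5/6 Nx-LPi-Lp. Ppargc1a, a coactivator of mitochondrial gene transcription, had log2 fold changes of 1.00 ± 0.23, edgeR adjusted p = 0.00603, and 1.68 ± 0.23, edgeR adjusted p = 0.00320. Esrrg, an estrogen-related receptor, had 1.77 ± 0.39, edgeR adjusted p = 0.00545, and 2.71 ± 0.50, edgeR adjusted p = 0.00488. Nrf1, whose core motif was searched above, did not pass in either (-0.20 ± 0.12 and -0.13 ± 0.11). Ppara, a nuclear receptor of fatty acid oxidation genes, was the 1 regulator lower in 5/6 Nx-HPi-Lp than in 5/6 Nx-LPi-Lp (-1.83 ± 0.41, edgeR adjusted p = 0.0162). That was 6.67% of the 15 regulators, below the 8.96% of all genes that were lower. The regulators named here were chosen after their values were seen.

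The 13 mitochondrially encoded protein genes, which supply the remaining subunits, were all higher than in Sham in each nephrectomy group, with medians of 2.29 in 5/6 Nx-HPi-Lp, 2.28 in 5/6 Nx-HPi-Hp and 2.03 in 5/6 Nx-LPi-Lp. The ratio of their summed FPKM to that of the nuclear members, a description chosen after seeing the data, was 5.34, 4.65, 5.84 and 6.49 in Sham and 32.3, 19.5, 20.3 and 19.4 in 5/6 Nx-HPi-Lp, which did not overlap. It was 9.04, 27.9, 13.3 and 10.9 in 5/6 Nx-HPi-Hp and 7.31, 11.8, 8.97 and 14.8 in 5/6 Nx-LPi-Lp, so every 5/6 Nx-LPi-Lp library lay below every 5/6 Nx-HPi-Lp library.

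Within groups, the library with the lowest brown adipocyte sum also had the lowest summed level of the members in Sham, 5/6 Nx-HPi-Lp and 5/6 Nx-HPi-Hp. The white adipocyte and heart lists were lowest in the same library in Sham and 5/6 Nx-HPi-Hp, but not in 5/6 Nx-HPi-Lp. In 5/6 Nx-LPi-Lp, library 1 was highest in both, while library 2 had the lowest brown adipocyte sum (778 FPKM), the highest heart sum and the second highest level of the members. The smooth muscle list summed to 848 to 1957 FPKM in 5/6 Nx-HPi-Lp, 2187 to 8737 in 5/6 Nx-HPi-Hp and 2732 to 6560 in 5/6 Nx-LPi-Lp. In 5/6 Nx-HPi-Hp, as in 5/6 Nx-LPi-Lp, its order of the libraries was the reverse of that of the members. In Sham and in 5/6 Nx-HPi-Lp it was not. The 7 sympathetic neuron markers summed to 2.96 to 4.43 FPKM in Sham and 15.4 to 796 FPKM in 5/6 Nx-HPi-Lp. Over all libraries endothelial markers lay between 128 and 230.4 FPKM, fibroblast markers between 246 and 2371 FPKM and skeletal muscle markers between 3.87 and 186 FPKM, with Myh4 at 0 in all 5/6 Nx-HPi-Lp libraries. Kidney tubule markers lay between 0.551 and 18.0 FPKM, with Slc34a1 and Umod at 0 in every library. Lung epithelium markers lay between 0.286 and 125 FPKM. Both lists were higher in every 5/6 Nx-HPi-Lp library than in any library of the other groups. Those other libraries reached at most 2.50 FPKM for kidney tubule and 4.64 FPKM for lung epithelium markers. Against each of the other groups, 1 of 2 tested kidney tubule markers and the 1 tested lung epithelium marker were higher in 5/6 Nx-HPi-Lp. The part of these cell types in the members' levels was not tested.

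**Figure D5:**
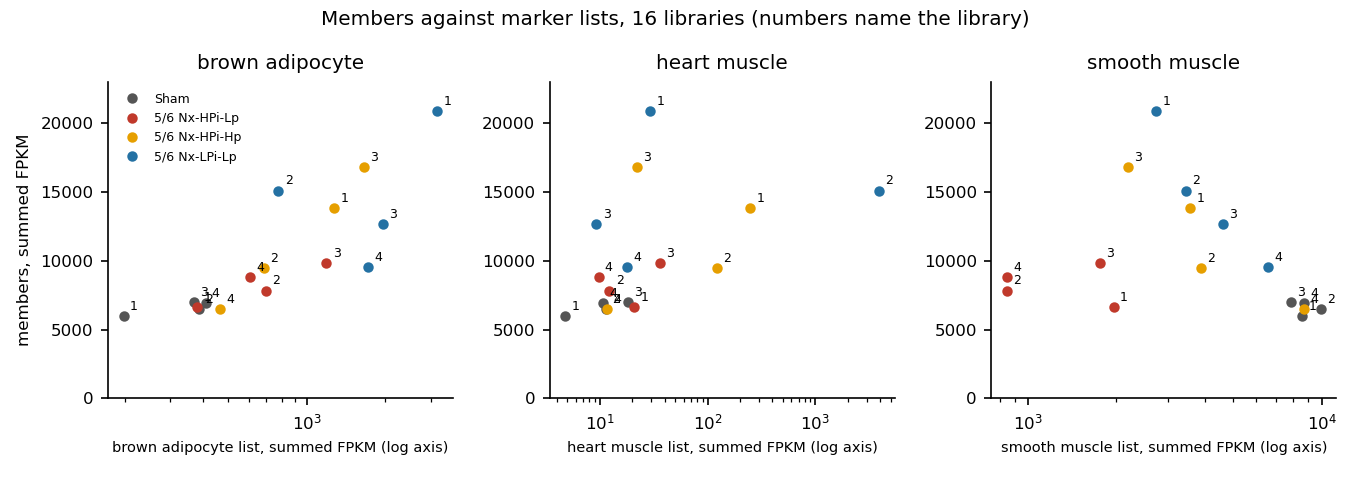
Summed FPKM of the 94 members (vertical axis) against the summed FPKM of the brown adipocyte, heart muscle and smooth muscle marker lists (horizontal log axes) in the 16 libraries. Members and brown adipocyte markers are both highest in 5/6 Nx-LPi-Lp library 1, and 5/6 Nx-LPi-Lp library 2 stands alone on the heart axis at 3903 FPKM.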

How the data were processed

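Whole-aorta RNA was sequenced for 16 mice. Per the labels and the study's methods, the authors aligned reads to mm10 with HISAT2 and deposited raw counts per gene from featureCounts 1.5.0-p3, with strand and multi-mapping options not stated in the sources used here. The deposited FPKM values are counts per kilobase of gene length, scaled by the authors between libraries with DESeq2 size factors; they were used for levels only.

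Differences were tested on the counts of the 8 libraries of each pair with edgeR 4.0.16 in R 4.3.3 (filterByExpr, TMM, quasi-likelihood test, Benjamini-Hochberg over all genes tested), tested first on simulated data. Two-sided exact permutation tests of isoform ratios used scipy 1.17.1 in Python 3.11.15. Alternatives used RLE, library totals, DESeq2 1.42.0, limma 3.58.1 on log2 FPKM with 1 or 0.1 added (mean FPKM over 0.5), no low-count filter, a minimum of 10 counts per library, 1 fit of all 16 libraries, a replicate block, no mitochondrially encoded genes and each library left out. Figures used matplotlib 3.10.9.

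The members, lists and tests were chosen with earlier results of these data known. Named genes were isoform pairs, the Sdh genes, the member of highest mean FPKM of each complex, the 3 largest passed changes in each direction and comparison, members passing against most others and those with too few counts. No libraries of 1 group were alike enough to be copies (lowest chi-square per gene 21.9). Reads shared with near-identical copies make values uncertain; 12 processed pseudogenes matching the name pattern held 0.116% of the members' counts.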

Additional observations from a re-analysis of the deposited data

Results flagged for a closer look

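In 224 groups of 4 values examined, 12 had 1 library far from the other 3, where chance flags about 1 in 20 groups. In 5/6 Nx-LPi-Lp library 2, Cox6a2 had 470.2 FPKM against 0.433 to 6.64 in the others of the group, Atp5g1 had 47.1 FPKM against 5.62 to 10.1, Cox6b2 had 7.31 FPKM against 4.59 to 4.88, and the heart muscle list summed to 3903 FPKM against 9.33 to 29.4. In 5/6 Nx-HPi-Lp library 2, Ndufa4l2 had 32.8 FPKM against 16.2 to 17.2 and the ratio of Cox4i2 to Cox4i1 was 0.0220 against 0.00992 to 0.0114. The ratio of mitochondrially encoded to nuclear-encoded members was 32.3 in 5/6 Nx-HPi-Lp library 1 against 19.4 to 20.3. The kidney tubule list summed to 2.50 FPKM in 5/6 Nx-LPi-Lp library 1 against 0.613 to 0.856. Cox8c had 0.456 FPKM in Sham library 2 and 0.482 FPKM in 5/6 Nx-LPi-Lp library 3, and Cox7b2 had 0.0678 FPKM in Sham library 1 and 0.0985 FPKM in 5/6 Nx-HPi-Hp library 1, each with 0 in the others of its group. The causes were not tested.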

How the results depend on the processing

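The median log2 fold change of the members kept its sign in 92 of 92 alternatives. Without 1 library it lay at 0.20 to 0.31 in 5/6 Nx-HPi-Lp against Sham, -0.58 to -0.23 against 5/6 Nx-HPi-Hp, -0.89 to -0.58 against 5/6 Nx-LPi-Lp, 0.53 to 0.92 in 5/6 Nx-HPi-Hp against Sham and 0.84 to 1.16 in 5/6 Nx-LPi-Lp against Sham. Without 1 library the members called ran from 17 to 43 higher and 4 to 6 lower in 5/6 Nx-HPi-Lp against Sham. Against 5/6 Nx-HPi-Hp they ran from 0 to 21 lower, with 21 without 5/6 Nx-HPi-Hp library 4 and 0 without 5/6 Nx-HPi-Lp library 2, and against 5/6 Nx-LPi-Lp from 10 to 61 lower, with 10 without 5/6 Nx-HPi-Lp library 4. They ran from 7 to 74 higher in 5/6 Nx-HPi-Hp against Sham, with 7 without Sham library 2, and from 67 to 78 higher in 5/6 Nx-LPi-Lp against Sham. With the 2-fold rule the counts were 1 higher and 0 lower in 5/6 Nx-HPi-Lp against Sham, 0 lower against 5/6 Nx-HPi-Hp, 12 lower against 5/6 Nx-LPi-Lp and 18 higher in 5/6 Nx-HPi-Hp. Scaling by library totals shifted the median of all genes by -0.14, -0.21 and -0.24 in the comparisons with Sham. It gave 19 higher and 7 lower members in 5/6 Nx-HPi-Lp, 20.9% and 7.69% beside 19% and 27.7% of all genes. In 5/6 Nx-HPi-Hp it gave 20 higher, 22% beside 11%. In 5/6 Nx-LPi-Lp it gave 69 higher and 2 lower, 75.8% and 2.2% beside 11% and 30.4%. All 16 libraries in 1 fit gave 7 higher and 2 lower in 5/6 Nx-HPi-Lp against Sham, 7.69% and 2.2% beside 21.3% and 15.9% of all genes. Against 5/6 Nx-HPi-Hp that fit gave 11 lower, 12.1% beside 11.6%, where DESeq2 gave 9, 9.78% beside 5.33%. Limma on log2(FPKM + 1) gave 2 lower against 5/6 Nx-HPi-Hp, 2.2% beside 5.13% of all genes. It gave 23 higher in 5/6 Nx-HPi-Hp against Sham, 25.3% beside 14.1%. With 0.1 added these counts were 2 and 16, 2.2% beside 3.98% and 17.6% beside 13.1%. With 0.1 added 22 were lower against 5/6 Nx-LPi-Lp, 24.2% beside 6.89%. With 5/6 Nx-HPi-Hp libraries 1 and 2 left out, chosen after seeing the data, 0 were lower against 5/6 Nx-HPi-Hp and 0 higher in 5/6 Nx-HPi-Hp against Sham, and the log2 fold change of Cox6a2 turned to -0.22 (adjusted p = 0.885). The share of members called higher was at or below that of all genes in 1 of 18 alternatives in 5/6 Nx-HPi-Lp against Sham, in 1 of 19 in 5/6 Nx-HPi-Hp against Sham and in 0 of 18 in 5/6 Nx-LPi-Lp against Sham, and the share called lower in 15 of 19 against 5/6 Nx-HPi-Hp and 0 of 18 against 5/6 Nx-LPi-Lp. The ratio of complex III between 5/6 Nx-HPi-Lp and Sham was 1.83 from the median of the members in place of 1.41 from their sum. That of complex IV was 1.45 in place of 1.27, and its groups overlapped by the sum but not by the median. Of 2845 values of named genes under alternatives, 2483 kept direction and side of the threshold, 296 no longer passed, 65 newly passed and 1 reversed. No isoform ratio passed in any fit without 1 library. The smallest exact p of 3 against 4 is 0.0571, so a ratio that lost a library could not pass. These fits therefore decide nothing about the ratios.

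The causes of these differences were not tested, beyond fewer libraries in the fits that left some out. Same-numbered animals did not deviate together: the correlation of their deviations lay between -0.28 and 0.22 over 20 pairs, with 2 over 0.1, and 3 were highest with their own number, so the numbers were not taken to pair the animals. A replicate block on the number gave 0 lower against 5/6 Nx-HPi-Hp, beside 0.772% of all genes. It gave 5 lower against 5/6 Nx-LPi-Lp, 5.49% of the members beside 3.73% of all genes. Against Sham it gave 18 higher in 5/6 Nx-HPi-Hp, 19.8% beside 10.3%. In 5/6 Nx-HPi-Lp it gave 36 higher, 39.6% beside 19.6%, and in 5/6 Nx-LPi-Lp 69 higher, 75.8% beside 12.3%. With 4 libraries a group and a wide spread in 5/6 Nx-HPi-Hp as in 5/6 Nx-LPi-Lp, values near the threshold depended on single libraries.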
